A study of Mus musculus with 11 samples.

Results

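Ceramide is built step by step in the endoplasmic reticulum and is then turned into other sphingolipids, and 10 genes of this route were followed here in liver sinusoidal endothelial cells (ECs): *Sptlc1*, *Sptlc2*, *Kdsr*, *Cers2*, *Cers4*, *Cers5*, *Cers6*, *Degs1*, *Ugcg* and *Cerk*. They were taken by symbol from the 29307 genes of the count table, which lists all 10. The study asked how the gut microbiota acts on the liver endothelium, and compared 5 germ-free (GF) mice, kept in sterile isolators without any microbes, with 6 conventionally raised (CONV-R) mice, kept free of specific pathogens but carrying a microbiota. Both groups were male wild-type C57BL/6J mice of the same colonies, aged 10 to 12 weeks and fed the same diet. Each library is 1 mouse. ECs were enriched with magnetic beads against CD146 and sorted as CD31+, CD105+ and CD146+ cells. GF livers yielded fewer sorted ECs and less RNA. Each library was amplified from 20 ng of total RNA. A further GF library was left out by the authors for its low number of mapped reads, and GF mice are therefore numbered 1, 2, 4, 5 and 6.

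De novo synthesis starts when serine palmitoyltransferase joins serine with palmitoyl-CoA. The product is reduced to a sphingoid base, acylated by a ceramide synthase and given a double bond by dihydroceramide desaturase, which makes ceramide. The mammalian ceramide synthases prefer fatty acyl chains of different lengths, so that the mixture of synthases shapes which ceramides a cell makes. Ceramide is then phosphorylated, glucosylated, turned into sphingomyelin or broken down to sphingosine, the precursor of sphingosine-1-phosphate, a lipid signal that controls the barrier and tone of vessels.

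Library totals spanned 7922855 to 14669352 counts in the CONV-R and 7242717 to 16164588 counts in the GF group and gave a two-sided exact permutation p of 0.411. Levels are given as CPM, a library's counts divided by its TMM-scaled total and set to a common size. The 13 sinusoidal EC markers, among them those for CD31, CD105 and CD146, were abundant in every library. Their summed levels were 36100 to 43600 CPM in CONV-R and 34800 to 49400 CPM in GF mice. Of these markers, 0 of 13 passed the test between the groups, beside 7.48% of all tested genes. Their fitted change was nonetheless positive for 10 of 13, with a median log2 fold change of 0.33, and 6 of 13 stood at an unadjusted p under 0.05, beside 23.0% of all tested genes. The 10 markers of Kupffer cells, the resident macrophages that line the same sinusoids, were much lower but differed. Their sum was 86.0 to 222 CPM in CONV-R and 197 to 931 CPM in GF mice, and none of the 10 was at 0 in a whole group. The fitted fold change was positive for all 10, and 7 passed the test as higher in GF mice, beside 4.8% of all tested genes. The 5 cholangiocyte markers, of which 2 had enough counts for a test, summed to 0.137 to 8.96 CPM in CONV-R and 13.6 to 36.8 CPM in GF mice. Of these, *Spp1* passed the test, and it made up 13.3 of 13.6 CPM in GF mouse 4 and 13.0 of 13.7 CPM in GF mouse 5, in both of which *Krt19* was at 0. Hepatocyte markers summed to 24.7 to 60.7 CPM and 33.6 to 80.5 CPM, with 0 of 9 tested genes called, beside 7.48% of all tested genes. Of stellate cell, lymphocyte, neutrophil and platelet markers, only 3, 4, 1 and 3 were tested, and 0 were called. The 4 tested lymphocyte markers were all fitted lower in GF mice, with a median log2 fold change of -1.20. At an unadjusted p under 0.05 stood 2 of these 4 and 1 of 3 stellate cell markers (*Lrat*, -1.43), beside 23.0% of all tested genes. A pair of libraries stood apart: GF mouse 6 had the highest Kupffer cell sum, 931 CPM, and CONV-R mouse 3 had the highest levels of several lipid genes described below. In such bulk RNA, more cells of a type and more RNA per cell of that type cannot be told apart.

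Of the 10 genes, *Cers6* and *Cerk* were higher in GF than in CONV-R mice, and the other 8 did not pass the test. *Cers6*, a ceramide synthase that prefers palmitoyl-CoA, differed by 1.61 on the log2 scale, and *Cerk*, the ceramide kinase, by 0.54. All 10 had enough counts to be tested. Called genes were those with an adjusted p under 0.05 by edgeR (quasi-likelihood test, Benjamini-Hochberg over 12905 genes). These were 2 of the 10 genes, beside 7.48% of all tested genes, and they split into 2 higher, beside 4.8%, and 0 lower, beside 2.67%. With so few genes the share of 2 in 10 is a description of these members only. At an unadjusted p under 0.05 stood 5 of the 10 (*Sptlc2*, *Cers2*, *Cers4*, *Cers6* and *Cerk*), beside 23.0% of all tested genes. The median log2 fold change was 0.17 over the 10 genes and -0.01 over all tested genes, and the median size without sign was 0.20 and 0.24. The fitted change was positive for 8 of the 10 and negative for *Cers4* and *Cers5*.

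Per length, as CPM per kilobase of exon, the transcripts covered a wide span. In CONV-R mice *Degs1* led with 296 ± 58.0 (SD, n = 6), followed by *Sptlc2* with a range of 44.6 to 58.0, *Cers2* with 35.5 ± 2.77, *Ugcg* with 25.2 ± 3.72 and *Sptlc1* with 20.9 ± 4.08. Then came *Cers5* with 18.4 ± 2.06, *Cers4* with 15.3 ± 1.13, *Cerk* with 12.8 ± 1.48, *Kdsr* with 3.11 ± 0.352 and *Cers6* with 0.674 ± 0.197. The ranges of the leading 3 and of the last 2 were apart from their neighbours, while from *Ugcg* down to *Cerk* each gene overlapped the next. In GF mice the first 5 and the last 2 held their places, and *Cerk*, at 18.6 ± 2.25 (SD, n = 5), moved from place 8 to place 6, ahead of *Cers5* and *Cers4*. The order of *Cerk* and *Cers5* is within their spread, and it turns with the length of the longest coding transcript, as does that of *Sptlc2* and *Cers2* in GF mice.

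**Figure D1:**
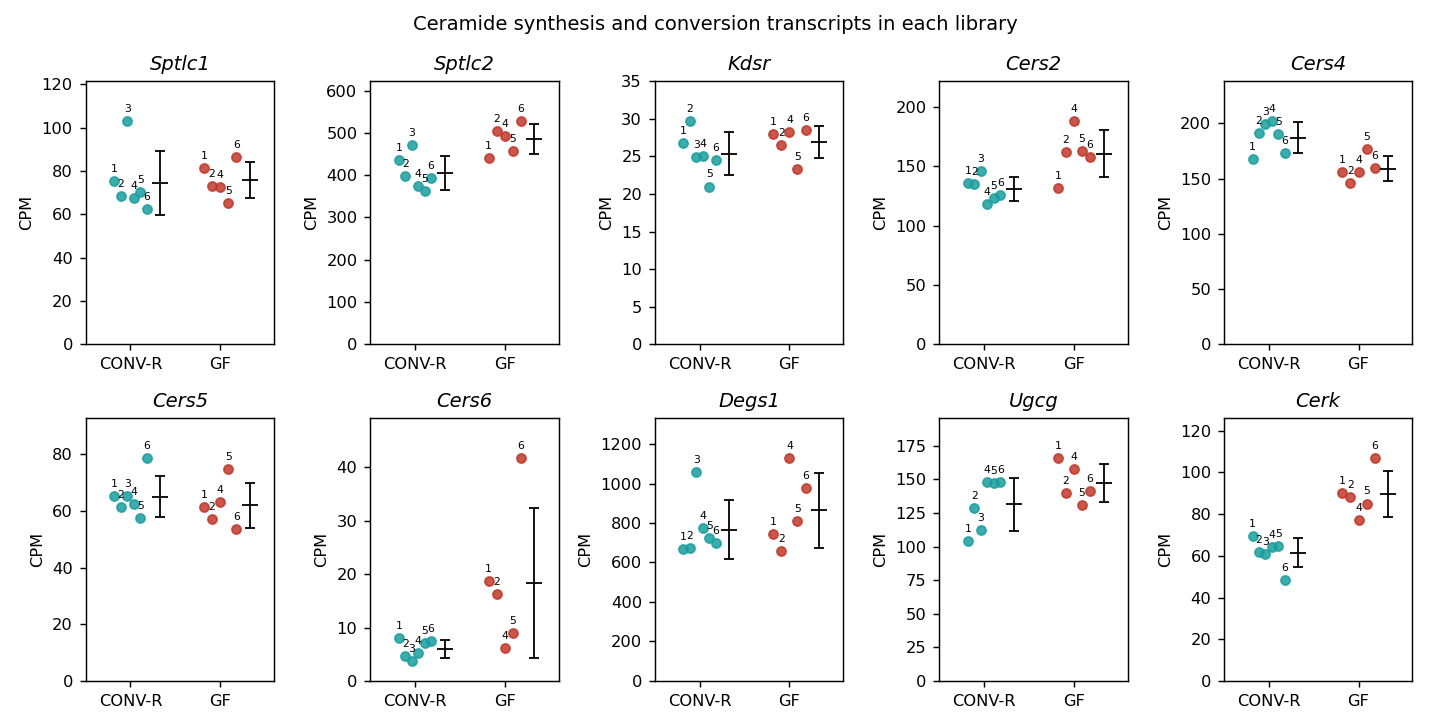
Level of each of the 10 genes in each library. The y axes give CPM and start at 0, points are mice with their numbers, and the bars beside them are the mean ± SD of 6 CONV-R (turquoise) and 5 GF (red) mice. The groups separate fully for *Cerk*, 48.3 to 69.5 CPM against 77.0 to 107 CPM, and the GF mice spread widely for *Cers6*, from 6.09 to 41.8 CPM.

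The first, rate-limiting step needs a heterodimer of the SPTLC1 and SPTLC2 proteins, of which SPTLC2 binds the pyridoxal phosphate cofactor. *Sptlc2* was expressed at 362 to 471 CPM in the CONV-R mice (median 395 CPM), and at 441, 505, 493, 457 and 528 CPM in GF mice 1, 2, 4, 5 and 6. All 5 GF mice lay above the CONV-R median and 3 above the highest CONV-R mouse, which was mouse 3. The means were 406 ± 40.5 (SD, n = 6) and 485 ± 35.3 CPM (SD, n = 5), a log2 fold change of 0.26 with a 95% interval of 0.05 to 0.46. The difference did not pass after adjustment (edgeR's quasi-likelihood test, adjusted p = 0.124). Its partner *Sptlc1* gave no such pattern. CONV-R mice had 62.4 to 103 CPM of *Sptlc1*, with a median of 69.2 CPM, and GF mice 1, 2, 4, 5 and 6 had 81.5, 72.9, 72.4, 65.4 and 86.5 CPM. The GF values all fell inside the CONV-R range, whose upper end was mouse 3 alone. The log2 fold change was 0.03, with a 95% interval of -0.26 to 0.31 (edgeR, adjusted p = 0.936), and its sign was not stable, since it was -0.02 without CONV-R mouse 6. The ratio of *Sptlc2* to *Sptlc1* CPM averaged 5.54 ± 0.597 (SD, n = 6) in CONV-R and 6.45 ± 0.677 (SD, n = 5) in GF mice, with overlapping ranges.

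*Kdsr* encodes 3-ketodihydrosphingosine reductase, the enzyme of the next step. Its level was 21 to 29.7 CPM in CONV-R mice (median 25 CPM), and 28.0, 26.5, 28.2, 23.3 and 28.5 CPM in GF mice 1, 2, 4, 5 and 6. The groups overlapped throughout, and the log2 fold change of 0.08 had a 95% interval of -0.20 to 0.37 (edgeR, adjusted p = 0.759). *Degs1*, which encodes dihydroceramide desaturase 1, the last enzyme before ceramide, was the most abundant of the 10 transcripts per length. It stood at 667 to 1060 CPM in CONV-R mice (median 712 CPM), and at 743, 660, 1130, 808 and 976 CPM in GF mice 1, 2, 4, 5 and 6. In each group 1 mouse was highest by a margin, CONV-R mouse 3 and GF mouse 4. The log2 fold change was 0.17, with a 95% interval of -0.14 to 0.49 (edgeR, adjusted p = 0.532). It was 0.29 without CONV-R mouse 3 (edgeR, adjusted p = 0.188) and 0.05 without GF mouse 4 (adjusted p = 0.878).

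Between these steps stand the ceramide synthases, which attach the acyl chain. Of the 6 synthase genes, *Cers2*, *Cers4*, *Cers5* and *Cers6* had enough counts for a test, while *Cers1* and *Cers3* had 3 and 8 counts over all 11 libraries. *Cers2*, the synthase for very long acyl chains and the main one of the liver, was expressed at 118 to 146 CPM in CONV-R mice (median 131 CPM). GF mice 1, 2, 4, 5 and 6 had 132, 162, 188, 163 and 158 CPM of it. Thus 4 of 5 GF mice lay above every CONV-R mouse. The log2 fold change was 0.30, with a 95% interval of 0.07 to 0.52, and did not pass after adjustment (edgeR, adjusted p = 0.101). Exons of *Cers2* overlap those of *Setdb1*, a histone methyltransferase gene on the opposite strand with 7236 counts over the 11 libraries, and the strand setting of the counting is not stated, so reads of the shared stretch cannot be assigned to either gene.

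*Cers4*, a synthase for long to very long chains, pointed the other way. CONV-R mice had 168 to 202 CPM of it, with a median of 191 CPM, and GF mice 1, 2, 4, 5 and 6 had 156, 146, 156, 177 and 160 CPM. Here 4 of 5 GF mice lay below every CONV-R mouse. The log2 fold change was -0.24, with a 95% interval of -0.44 to -0.03 (edgeR, adjusted p = 0.152). *Cers5*, which like *Cers6* prefers palmitoyl-CoA, stood at 57.4 to 78.7 CPM in CONV-R mice (median 63.8 CPM), and at 61.4, 57.0, 63.1, 74.6 and 53.7 CPM in GF mice 1, 2, 4, 5 and 6. Its groups overlapped, and the log2 fold change of -0.07 had a 95% interval of -0.32 to 0.18 (edgeR, adjusted p = 0.779).

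*Cers6*, at chr2:68861441-69114282 on GRCm38, was the least abundant of the tested synthases and had the largest fitted change of the 10 genes. CONV-R mice 1 to 6 had 7.99, 4.58, 3.68, 5.14, 7.03 and 7.45 CPM, from 30 to 103 counts a library. GF mice 1, 2, 4, 5 and 6 had 18.8, 16.3, 6.09, 8.99 and 41.8 CPM, from 64 to 308 counts. So 4 of 5 GF mice lay above every CONV-R mouse, GF mouse 4 lay among them, and GF mouse 6 was far above the rest. The means were 5.98 ± 1.75 (SD, n = 6) and 18.4 ± 14.1 CPM (SD, n = 5), a ratio of 3.08. The log2 fold change was 1.61 (SE 0.38, 95% interval 0.81 to 2.41), and it passed the test (edgeR's quasi-likelihood test, adjusted p = 0.0154). Much of its size came from GF mouse 6, without which the log2 fold change was 1.07 and the call was lost (edgeR, adjusted p = 0.0605).

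The order of the *Cers6* levels was close to that of the Kupffer cell markers. In the GF group the marker sum was 288, 357, 197, 212 and 931 CPM in mice 1, 2, 4, 5 and 6, so that the mouse with the lowest sum, mouse 4, also had the least *Cers6*, and mouse 6 had the most of both. In the CONV-R group the marker sum was 222, 86.7, 87.5, 86.0, 125 and 196 CPM in mice 1 to 6, and mice 1, 5 and 6 had the highest sums and the most *Cers6*. When mean Kupffer cell marker level entered the fit as a covariate, the log2 fold change of *Cers6* was 0.14 (edgeR, adjusted p = 0.970). The markers differ between the groups themselves, and this fit called 83 genes in place of 965. The cholangiocyte marker sum had the same order as *Cers6* in the GF group, at 26.9, 17.7, 13.6, 13.7 and 36.8 CPM in mice 1, 2, 4, 5 and 6. Whether *Cers6* transcripts came from ECs or from other cells was not tested, and the cell types cannot be told apart in these libraries.

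After the group means were subtracted, the 5 genes whose log2 CPM followed *Cers6* most closely over the 11 libraries, among 12904 others, were *Cldn2* (Pearson r = 0.957), *AB124611* (r = 0.951), *Slc4a4* (r = 0.949), *Cd79b* (r = 0.941) and *Clec4f* (r = 0.941). *Clec4f* is one of the Kupffer cell markers, *Cldn2* encodes a tight junction protein of epithelia, *Slc4a4* a bicarbonate transporter and *Cd79b* a part of the B cell receptor. Between the groups *Slc4a4* (log2 fold change 3.23, edgeR adjusted p = 0.0427) and *Clec4f* (1.55, adjusted p = 0.0262) passed the test, and the other 3 did not. These correlations share their libraries, their depth and the high value of GF mouse 6. They are given as a description, with genes picked for their likeness.

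**Figure D2:**
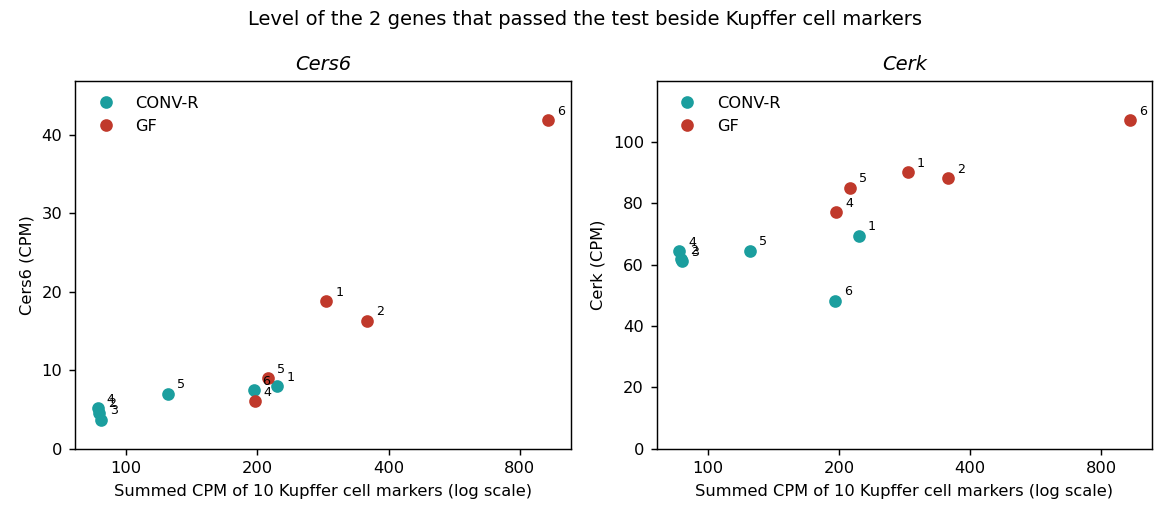
Levels of *Cers6* and *Cerk* (y axes, CPM, from 0) against the summed CPM of 10 Kupffer cell markers (x axes, log scale) in each of 6 CONV-R (turquoise) and 5 GF (red) mice, numbered as in the text. *Cers6* and the marker sum are both highest in GF mouse 6, at 41.8 and 931 CPM, and *Cerk* is highest there too, at 107 CPM. GF mice 1, 2 and 6 have marker sums above that of any CONV-R mouse.

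The synthases can be set beside each other per length, as CPM per kilobase of exon. In CONV-R mice this level was 35.5 for *Cers2*, 18.4 for *Cers5*, 15.3 for *Cers4* and 0.674 for *Cers6*, and in GF mice 43.7, 17.5, 13.0 and 2.07. *Cers2* led and *Cers6* came last in both groups. As a share of the 4 synthase transcripts per length, *Cers2* made up 50.8% ± 2.33 (SD, n = 6) in CONV-R and 57.2% ± 3.71 (SD, n = 5) in GF mice, with ranges of 48.0% to 53.0% and 52.8% to 62.1%. The share of *Cers4* was 21.9% ± 2.03 and 17.1% ± 1.29. Its range was 19.6% to 24.7% in the first and 15.4% to 18.7% in the second group, without overlap. These ranges did not overlap either when no length or the length of the longest coding transcript was used. The shares themselves moved, to 48.1% and 39.8% without length. A share also falls when another synthase rises, and the CPM of *Cers4* itself overlapped, at 168 to 202 in CONV-R and 146 to 177 in GF mice. *Cers5* took 26.3% ± 2.50 and 23.0% ± 2.63. *Cers6* took 0.970% ± 0.295 and 2.78% ± 2.12, reaching 6.20% in GF mouse 6.

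The opposite signs of *Cers2* and *Cers4* show most plainly in the ratio of their CPM within a library. It was 0.809, 0.708, 0.733, 0.583, 0.646 and 0.729 in CONV-R mice 1 to 6 and 0.848, 1.11, 1.21, 0.919 and 0.990 in GF mice 1, 2, 4, 5 and 6. Every GF mouse was above every CONV-R mouse, with means of 0.701 ± 0.0779 and 1.01 ± 0.143. For single genes, 5.59% of those tested had groups that did not overlap. The ratio is 1 of 5 computed and was looked at because its genes differed in sign, so it carries no test. It uses CPM without length, so that its height says nothing of which transcript was more abundant.

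**Figure D3:**
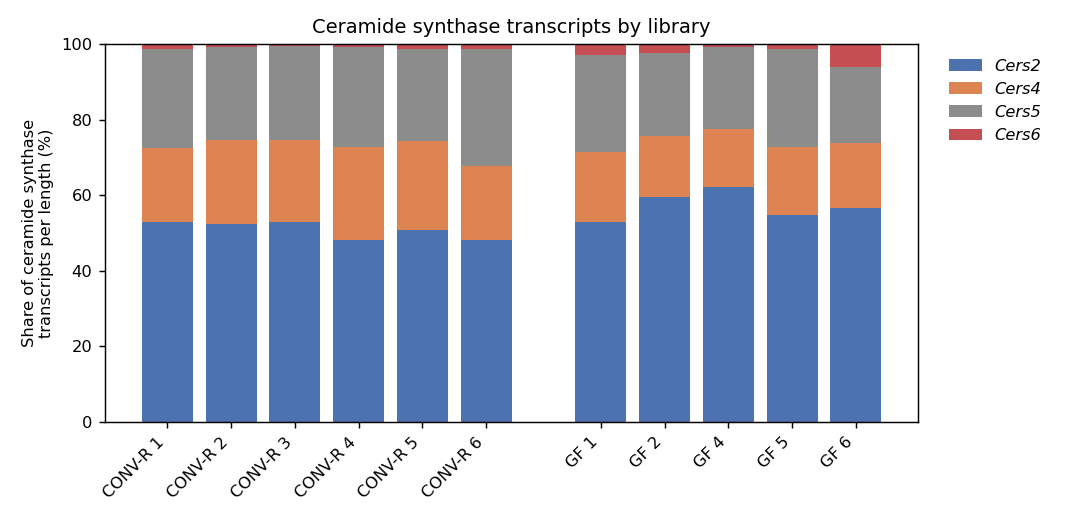
Share of *Cers2*, *Cers4*, *Cers5* and *Cers6* in the summed ceramide synthase transcripts per length (y axis, percent, 0 to 100) in each library (x axis). The *Cers4* segment is 19.6% to 24.7% in the 6 CONV-R mice and 15.4% to 18.7% in the 5 GF mice, and the *Cers6* segment is thin except in GF mouse 6, at 6.20%.

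The enzymes that take ceramide onward were *Cerk* and *Ugcg*. *Cerk* encodes ceramide kinase, which makes ceramide-1-phosphate, a lipid that activates cytosolic phospholipase A2. The gene lies at chr15:86139128-86186141 on GRCm38. CONV-R mice 1 to 6 had 69.5, 61.8, 61.1, 64.3, 64.6 and 48.3 CPM of *Cerk*, and GF mice 1, 2, 4, 5 and 6 had 90.1, 88.2, 77.0, 85.1 and 107 CPM. The lowest GF mouse lay above the highest CONV-R mouse. The means were 61.6 ± 7.14 (SD, n = 6) and 89.4 ± 10.8 CPM (SD, n = 5), a ratio of 1.45, and the log2 fold change was 0.54 (SE 0.12, 95% interval 0.28 to 0.79). It passed the test (edgeR's quasi-likelihood test, adjusted p = 0.0111) and passed it with any 1 mouse left out, at log2 fold changes of 0.47 to 0.58. Of the 10 genes only *Cerk* had groups that did not overlap, with GF above, beside 3.22% of all tested genes.

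For *Cerk* too, GF mouse 6 had the highest level. CONV-R mice 1 and 6, with marker sums of 222 and 196 CPM, had 69.5 and 48.3 CPM of *Cerk*. GF mice 4 and 5, with sums of 197 and 212 CPM, had 77.0 and 85.1 CPM. These mice, picked for their like sums, had 7.99, 7.45, 6.09 and 8.99 CPM of *Cers6* in the same order. The marker sums of the other 3 GF mice, 288, 357 and 931 CPM, were above that of any CONV-R mouse. With the markers as a covariate the log2 fold change of *Cerk* was 0.41 (edgeR, adjusted p = 0.538). The part of Kupffer cells in the result was not tested further. The genes most like *Cerk* within the groups were *N4bp1* (Pearson r = 0.874), *Med26* (r = 0.860), *St3gal1* (r = 0.829), *Lamtor2* (r = 0.816) and *Rpusd2* (r = 0.810), again over 11 libraries and as a description. None of these 5 passed the test between GF and CONV-R mice, with adjusted p of 0.292 to 0.972 in edgeR.

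*Ugcg* encodes glucosylceramide synthase, which opens the path to the glycosphingolipids. CONV-R mice had 104 to 148 CPM of *Ugcg*, with a median of 138 CPM, and GF mice 1, 2, 4, 5 and 6 had 166, 140, 158, 131 and 141 CPM. Only GF mice 1 and 4 exceeded the CONV-R range. The log2 fold change was 0.17, with a 95% interval of -0.09 to 0.42 (edgeR, adjusted p = 0.437). The ratio of *Ugcg* to *Cerk* CPM was 2.18 ± 0.524 (SD, n = 6) in CONV-R and 1.67 ± 0.283 (SD, n = 5) in GF mice, with overlapping ranges of 1.5 to 3.05 and 1.32 to 2.06.

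**Figure D4:**
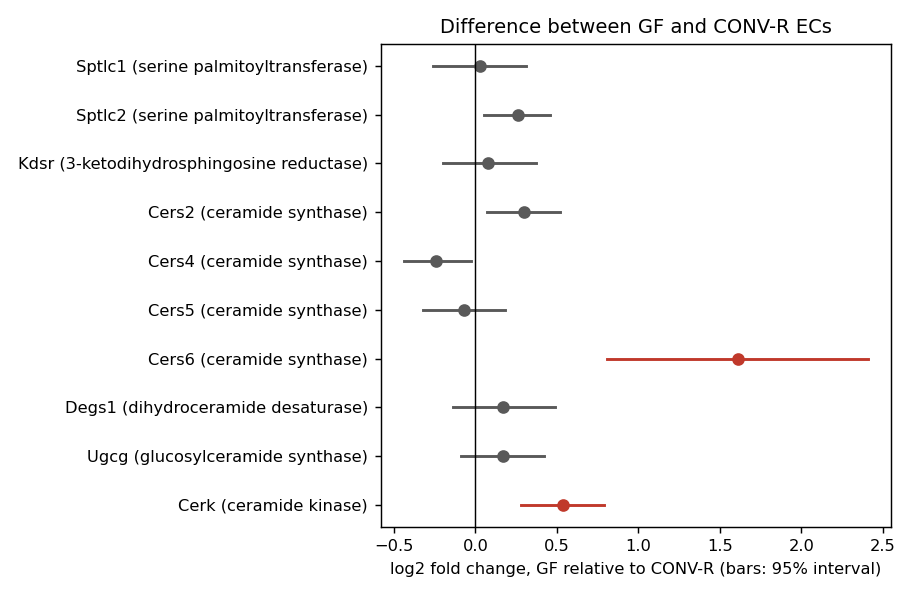
Log2 fold change of GF relative to CONV-R mice for the 10 genes (x axis), ordered along the pathway (y axis), with 95% intervals from edgeR's fit to 6 and 5 mice. Red marks the 2 genes with an adjusted p under 0.05, *Cers6* at 1.61 and *Cerk* at 0.54, and the interval of *Cers6* is the widest.

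The promoters of the 2 called genes are shown because each was called higher in GF mice. Both are RefSeq windows on GRCm38.p6, from 250 bases before to 50 bases after the start site, at chr2:68861191-68861490 on the plus strand for *Cers6* and chr15:86186092-86186391 on the minus strand for *Cerk*, written 5′ to 3′ on the strand of the gene. Capitals mark matches, on either strand, to an E-box (spelled CACGTG), to the box named for its letters CCAAT, to a GC box (spelled GGGCGG) or to a TATA box (spelled TATAAA).
Cers6: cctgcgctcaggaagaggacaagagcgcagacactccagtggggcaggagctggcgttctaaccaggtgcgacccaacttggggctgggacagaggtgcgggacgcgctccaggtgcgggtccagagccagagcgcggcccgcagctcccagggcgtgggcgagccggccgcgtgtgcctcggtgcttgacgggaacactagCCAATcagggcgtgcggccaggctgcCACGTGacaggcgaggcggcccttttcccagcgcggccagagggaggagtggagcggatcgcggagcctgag
Cerk: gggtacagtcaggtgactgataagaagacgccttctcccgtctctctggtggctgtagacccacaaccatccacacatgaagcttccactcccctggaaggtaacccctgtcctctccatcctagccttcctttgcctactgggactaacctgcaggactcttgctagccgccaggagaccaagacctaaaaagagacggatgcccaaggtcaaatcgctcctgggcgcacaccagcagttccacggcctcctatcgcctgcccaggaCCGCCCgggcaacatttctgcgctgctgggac
The *Cers6* window held a CCAAT box that began 48 bases and an E-box that began 22 bases before the start site. The *Cerk* window held 1 GC box, on the opposite strand as CCGCCC, that began 18 bases after the start site. Of all 32851 promoter windows, the E-box was found in 7.15%, the CCAAT box in 37.4%, the GC box in 35.7% and the TATA box in 13.6%. The called genes shared none of the 4 motifs. Over the 11 windows of the 10 genes (*Cers2* has 2), the E-box was found in 3 (*Cers2*, *Cers6* and *Degs1*), the CCAAT box in 4 (*Cers2*, *Cers6*, *Sptlc1* and *Sptlc2*), the GC box in 8 and the TATA box in 0. The *Cers6* window was 70.0% GC with 28 CpG and that of *Cerk* 58.3% GC with 11 CpG, beside a median of 64.3% and 21 CpG for the 11 windows and 52.7% and 7 for all promoters. A match is a description of these letters only.

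The wider pathway was counted in 4 lists, of which 56 genes were tested and 8 called, beside 7.48% of all tested genes. The lists were chosen with earlier results of these data known, so this count is a description of these genes only. The first list held partners, regulators and paralogs of the de novo enzymes, 12 genes with 8 tested and 0 called by edgeR's quasi-likelihood test, 2 of them at an unadjusted p under 0.05 (*Tlcd3b*, -0.85, and *Zdhhc9*, 0.39 on the log2 scale), beside 23.0% of all tested genes. The brakes on serine palmitoyltransferase gave values of both signs: the log2 fold change was -0.43 for *Ormdl1*, 0.57 for *Ormdl2* and -0.20 for *Ormdl3*, with adjusted p of 0.357, 0.384 and 0.654 in edgeR. The small activating subunit *Sptssa* stood at 238 CPM in CONV-R mouse 3 and at 64.2 to 90.7 CPM in the other CONV-R mice, against 37.2 to 116 CPM in GF mice. That is the mouse with the highest *Sptlc1*, *Sptlc2* and *Degs1* of its group. The rival subunit *Sptlc3* had 7 counts over the 11 libraries and *Sptssb* 29, too few for a test.

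Of the 23 genes that supply acyl-CoA and serine, 18 were tested, 1 was called higher and 1 lower, beside 4.8% and 2.67% of all tested genes. *Elovl1*, which makes the very long acyl-CoAs that CERS2 uses, was at 30.4 to 42.9 CPM in CONV-R mice and at 48.1, 49.4, 56.5, 39.8 and 62.7 CPM in GF mice 1, 2, 4, 5 and 6. Thus 4 of 5 GF mice exceeded every CONV-R mouse, and the log2 fold change was 0.57 (SE 0.14, edgeR adjusted p = 0.0164). It was 0.49 without GF mouse 6, and the call was lost (adjusted p = 0.0545). *Acsl3*, a long-chain acyl-CoA synthetase, was at 31.6 to 67.3 CPM in CONV-R and 24.1 to 27.3 CPM in GF mice, without overlap. Its log2 fold change of -0.66 (SE 0.18, edgeR adjusted p = 0.0327) fell in size to -0.46 without CONV-R mouse 3 (adjusted p = 0.0258), and leaving out any 1 of 6 other mice gave -0.63 to -0.68 with the call lost (adjusted p of 0.0506 to 0.0691).

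Of the 22 genes of ceramide transfer and glycosphingolipids, 21 were listed, 18 were tested, 2 were called higher and 1 lower, beside 7.48% of all tested genes called. At an unadjusted p under 0.05 stood 10 of the 18, beside 23.0% of all tested genes. *B4galnt1*, which makes the GM2 and GD2 gangliosides from lipids built on the *Ugcg* product, was at 20.3 to 25.3 CPM in CONV-R mice and at 11.7, 10.1, 9.33, 15.6 and 17.8 CPM in GF mice 1, 2, 4, 5 and 6. The groups did not overlap, and the log2 fold change was -0.81 (SE 0.18, edgeR adjusted p = 0.0113). Among the genes called higher was *Psap*, which acts in the lysosome. *Psap*, the precursor of the saposins that present glycolipids to lysosomal hydrolases, was at 99.7 to 153 CPM in CONV-R mice and 160 to 414 CPM in GF mice, without overlap, and its log2 fold change was 1.04 (SE 0.20, edgeR adjusted p = 0.00390). *Psap* is also known to be highly expressed in macrophages. With the Kupffer cell covariate the log2 fold change was 0.98 for *Psap* (edgeR adjusted p = 0.215), -0.99 for *B4galnt1* (0.145), 0.29 for *Elovl1* (0.767) and -0.43 for *Acsl3* (0.765).

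Among the 15 other enzymes that take up or release ceramide, 12 were tested, 2 were called higher and 1 lower, beside 4.8% and 2.67% of all tested genes. These were *Sgms1*, sphingomyelin synthase 1 (log2 fold change 1.6), *Acer2*, an alkaline ceramidase of the Golgi (1.40), and *Acer3*, another alkaline ceramidase (-0.52), with edgeR adjusted p of 1.1e-07, 2.75e-06 and 0.0197. The first pair differed by more than any of the 10 genes except *Cers6*, whose SE was 0.38 against 0.11 for *Sgms1*.

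**Figure D5:**
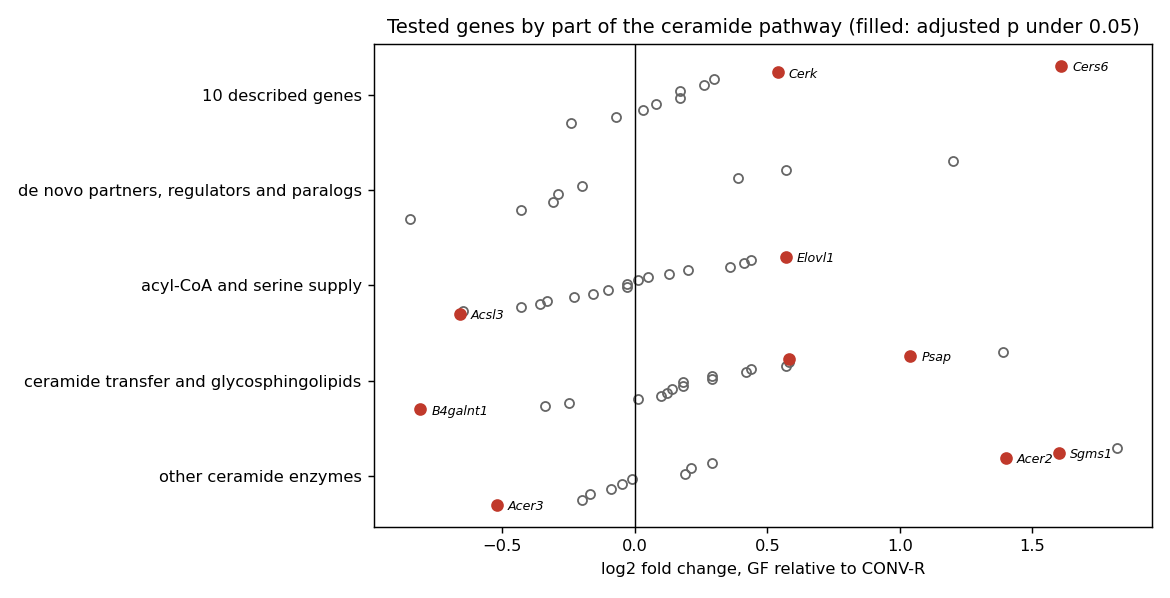
Log2 fold change of GF relative to CONV-R mice (x axis) for every tested gene of the 10 described genes and the 4 further lists (y axis), 1 circle a gene. Filled red circles have an adjusted p under 0.05, with the genes named in the text labelled. Most genes of each list are open circles, with 2 of 10 and 8 of 56 filled. Open circles run from -0.85 (*Tlcd3b*) to 1.82 (*Plpp2*), and 15 of 18 genes of the glycosphingolipid list are positive.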

How the data were processed

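RNA-seq libraries of sorted liver ECs from 6 CONV-R and 5 GF mice were analysed, grouped by the sample labels. The authors deposited raw counts per gene, made by mapping reads of 50 bases to GRCm38 with STAR and counting them with featureCounts. The submitters' processing notes also name Trim Galore, SAMtools, Picard, StringTie and bedtools. Annotation release and strand setting are not given in the sources used here. The authors also deposited log2 values normalized with DESeq, used only as an alternative.

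Counts were filtered with filterByExpr, scaled by TMM and compared with the quasi-likelihood test of edgeR 4.0.16 in R 4.3.3 without covariates, adjusting over 12905 genes. The filter needs a minimum count in as many libraries as the smaller group. Lengths came from GENCODE M21 and promoters from RefSeq. The spread of 5 or 6 mice and, for *Cers6*, counting error limit precision. The test was tried on simulated data.

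The members and gene lists were chosen with earlier results of these data known. Named were the 10 members, listed pathway genes with an adjusted p under 0.05 or sharing a reaction or complex with a member, and the 5 genes most like each called member. *Tlcd3b* and *Zdhhc9* were named for their p. *B3galt4* was not analysed here, and 1 called gene of the glycosphingolipid list is counted but not reported here. Alternatives were DESeq2 1.42.0, voom and trended fits of limma 3.58.1, other filters and scalings, drawn-down counts, a Kupffer cell covariate, a replicate block and each mouse left out.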

Additional observations from a re-analysis of the deposited data

Results flagged for a closer look

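A gap of 1 mouse from the rest of its group, by Dixon's criterion at 95%, was found in 7 of the 44 groups examined. The groups share their mice, the synthase shares depend on each other, and some genes were picked for their call. The chance rate of about 1 in 20 for a single group is therefore no measure of this count. CONV-R mouse 3 was the mouse in 4 of them, with 103 CPM of *Sptlc1*, 1060 CPM of *Degs1*, 67.3 CPM of *Acsl3* and 238 CPM of *Sptssa*, each the highest of its group. CONV-R mouse 1 was high for *Elovl1*, at 42.9 CPM. CONV-R mouse 6 had the highest share of *Cers5* among the ceramide synthases, 31.1%. GF mouse 6 was high for the summed Kupffer cell markers, at 931 CPM. The cause of these gaps was not tested.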

How the results depend on the processing

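The 10 log2 fold changes were recomputed under 23 alternatives each. *Cers2*, *Cers4*, *Cers5*, *Kdsr*, *Degs1*, *Sptlc2* and *Ugcg* kept their sign and stayed above an adjusted p of 0.05 in all 23. *Sptlc1*, at 0.03, turned to -0.05 with the Kupffer cell covariate and ran from -0.02 to 0.14 with 1 mouse left out. *Cers6* ran from 1.07 to 1.83 with 1 mouse left out and passed in all but the loss of GF mouse 6. It missed the threshold with voom (1.31, adjusted p = 0.0520), with the covariate (0.14) and with CONV-R mouse 3 and GF mouse 6 both left out (0.98, adjusted p = 0.0797), an alternative chosen after seeing the data. *Cerk* ran from 0.47 to 0.58 with 1 mouse left out and missed the threshold only with the covariate (0.41). The number of the 10 genes called was 1 with voom, 0 with the covariate, 1 with both mice left out and 1 to 2 with 1 left out. Of the 56 other pathway genes, 8 were called, 2 with the covariate and 5 to 11 with 1 mouse left out. Of all genes, 965 were called in edgeR, 1527 in DESeq2 (of 15540 genes with an adjusted p), 83 with the covariate and 622 to 1260 with 1 mouse left out, lowest without GF mouse 6 (622) or CONV-R mouse 4 (625). Of the calls 64.2% were higher in GF, and 75.9% with the covariate. The shares of the synthases moved with the length used, also for the longest coding transcript, which was added after seeing the data.

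Same-numbered libraries are different mice, and their deviations from the group means correlated at -0.0144 to 0.201, so the numbers were not taken as a pairing. With a replicate block over 10 libraries *Cers6* was 1.26 (adjusted p = 0.0182), *Cerk* 0.53 (adjusted p = 0.0224), 2 of the 10 genes were called and 1101 genes in all, beside 931 for the same libraries without the block, added after seeing the data.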
